A study of Homo sapiens with 30 samples.

Results

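Gene expression in vehicle-treated cells was compared between breast cancer cell lines with and without amplification of ERBB2, without regard to the BMP7 treatment of the experiment. The ERBB2-amplified group held ZR-75-30, MDA-MB-361 and HCC1954 and the other group T-47D and MDA-MB-231. Amplification was not measured on these arrays and is not in the sample labels. It was taken from what is known of the lines, and the level of ERBB2 itself was the check. Each line was grown in plates and received vehicle for 0.5, 1, 3, 6, 12 or 24 h, and the cells of 3 cultures were pooled for every sample. This gave 6 arrays per line, 18 of the amplified group and 12 of the other group, which together are all 30 arrays of the series. The vehicle RNA was labeled with Cy3 on every array and the RNA of BMP7-treated cells with Cy5, and only the Cy3 channel was used unless stated. The vehicle level of a gene is the log2 Cy3 intensity minus the median of its array, so 0 is the array median, and a line mean is the mean of its 6 arrays. The arrays of a line are its time points and no time point was repeated, so the unit of comparison was the line, 3 against 2, and p-values measure the spread between lines.

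The rule took every gene for which all 3 amplified lines lay above both other lines, or all below. The gene also had to be well above background on at least 4 of 6 arrays in every line of the higher group. Of 17842 genes measured, 1267 were higher in every amplified line (7.1%) and 1289 were lower in every amplified line (7.22%), together 14.3%. Among the 11290 genes well above background in all 5 lines the shares were 9.56% and 9.63%. Before the background condition the groups separated for 1379 and 2029 genes, together 3408 or 19.1% of all genes measured. The 5 lines can be split 3 against 2 in 10 ways. Other splits were not counted, so these counts alone do not link the genes to amplification. The 2 groups also differed in other ways. Per the methods of the study, MDA-MB-231 and T-47D were the lines grown at other than the recommended serum concentration. The 3 amplified lines were chosen for low endogenous BMP4 and BMP7, and the other lines for low BMP7. Amplification, serum and this choice cannot be told apart here.

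ERBB2 (HER2) is a receptor tyrosine kinase of the epidermal growth factor receptor family. It has no ligand of its own and signals as a partner of EGFR, ERBB3 or ERBB4, whose ligands include EGF, amphiregulin and the neuregulins. In a share of breast cancers a segment of chromosome 17q12 is amplified, and ERBB2 is then overexpressed together with some of the genes beside it. ERBB2 and PGAP3, which encodes an enzyme that remodels the lipid of GPI-anchored proteins, lie back to back and are transcribed away from each other. The 36 bases between their RefSeq start sites, chr17:39688058-39688093 on the + strand of GRCh38.p14, are shown because both genes belong to the run of genes described next. The capitals mark CCGGAAGT, a site of the kind recognized by ETS family factors, and its reverse complement ACTTCCGG.

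ERBB2-PGAP3: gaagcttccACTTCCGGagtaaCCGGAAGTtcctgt

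The motif was found 1 time on each strand, without overlap. Among the RefSeq promoters of 35116 genes, 1.25% held it on at least 1 strand within the same number of bases before the start, and 0.00854% held it on both strands. It was chosen after the stretch had been read, and it is a match of letters only.

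The 30 arrays were told apart by cell line. Every array correlated best with an array of its own line, with a median correlation of 0.94 to 0.99 within lines and at most 0.90 with any array of another line. Between 54.2% and 69.7% of probes were well above background on an array. The arrays lay on 13 slides, of which 1 held both groups, and were scanned in 2 batches, the second with 6 arrays and none of MDA-MB-361. MDA-MB-231 at 6 h and T-47D at 3 h had the lowest agreement with their own lines, and both were in the second scan batch. T-47D at 24 h came next, with a median correlation of 0.95, and was in the first scan batch. Without MDA-MB-231 at 6 h and T-47D at 3 h, 1284 genes were higher and 1217 lower. The median SD over the 6 arrays of a line was 0.16 in MDA-MB-361, 0.26 in HCC1954, 0.28 in ZR-75-30, 0.36 in T-47D and 0.44 in MDA-MB-231, over genes well above background in all lines.

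KRT8 and KRT18, keratins of simple epithelium, were well above background on all arrays. KRT8 had line means of 9.18 in HCC1954, 8.86 in MDA-MB-361, 9.68 in ZR-75-30, 6.59 in MDA-MB-231 and 9.57 in T-47D. The basal marker KRT5 and the mesenchymal marker VIM did not separate the groups. KRT5, a basal keratin, was high in HCC1954 alone, at 6.11, and well above background on at most 1 array of any other line. VIM, the mesenchymal filament vimentin, was at 10.03 in MDA-MB-231 and 7.60 in HCC1954, against -1.83 in MDA-MB-361, 0.26 in ZR-75-30 and 0.96 in T-47D. ESR1, the estrogen receptor, was high in T-47D (3.61) as in MDA-MB-361 (4.15) and ZR-75-30 (2.45), and low in both HCC1954 (-0.74) and MDA-MB-231 (-4.53). Each of these markers thus placed at least 1 line of each group on the same side. The blood markers PTPRC and HBB were not well above background on any array. The probe for ADIPOQ, a fat cell hormone, was well above background on all arrays, with line means from 5.09 to 6.19 that overlapped between the groups, so it did not serve as a marker here. PECAM1, of endothelium, was at 2.04 in HCC1954 and not well above background on more than 3 arrays of any other line.

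ERBB2 was the first gene examined, since it checks the grouping. In HCC1954 its vehicle level ranged from 9.79 to 10.86 with a median of 10.18, in MDA-MB-361 from 10.11 to 10.44 with a median of 10.19, and in ZR-75-30 from 9.36 to 9.96 with a median of 9.66. In MDA-MB-231 it ranged from 4.21 to 6.14 with a median of 5.05, and in T-47D from 6.15 to 6.69 with a median of 6.32. The lowest array of the amplified lines, 9.36, was above the highest array of the other lines, 6.69, so the groups did not overlap on any array. The line means were 10.28 ± 0.41 (SD, n = 6 arrays) in HCC1954, 10.25 ± 0.15 in MDA-MB-361, 9.64 ± 0.24 in ZR-75-30, 5.05 ± 0.66 in MDA-MB-231 and 6.34 ± 0.18 in T-47D. HCC1954 and MDA-MB-361 differed by less than their spread, while T-47D was above MDA-MB-231 on every array. The group means differed by 4.36 ± 0.54 (SE, limma) on the log2 scale, which is 20.5-fold. In limma across all 40999 probes the adjusted p was 0.43. On the slide that held both groups, ERBB2 was at 5.28 and 6.14 in MDA-MB-231 and at 9.39 and 9.36 in ZR-75-30, at 0.5 and 6 h. Its other probe separated the groups as well. These RNA samples are bulk samples, in which more cells with a transcript and more transcript per cell cannot be told apart.

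The genes on both sides of ERBB2 separated the groups without a break. Along chromosome 17, 8 consecutive measured genes were higher in every amplified line, from PPP1R1B through STARD3, TCAP, PNMT, PGAP3, ERBB2 and MIEN1 to GRB7. Their probes span chr17:35046134-35155966 (hg18, the build of the files), or 110 kb. It was the longest run of such genes on any of the chromosomes 1 to 22 and X in either direction, where the other 13 runs of 4 or more had 4 or 5 genes. All 8 genes separated the groups at 6 of 6 time points. HCC1954 was the highest line for 5 of the 8, MDA-MB-361 for 2 and ZR-75-30 for 1.

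**Figure D1:**
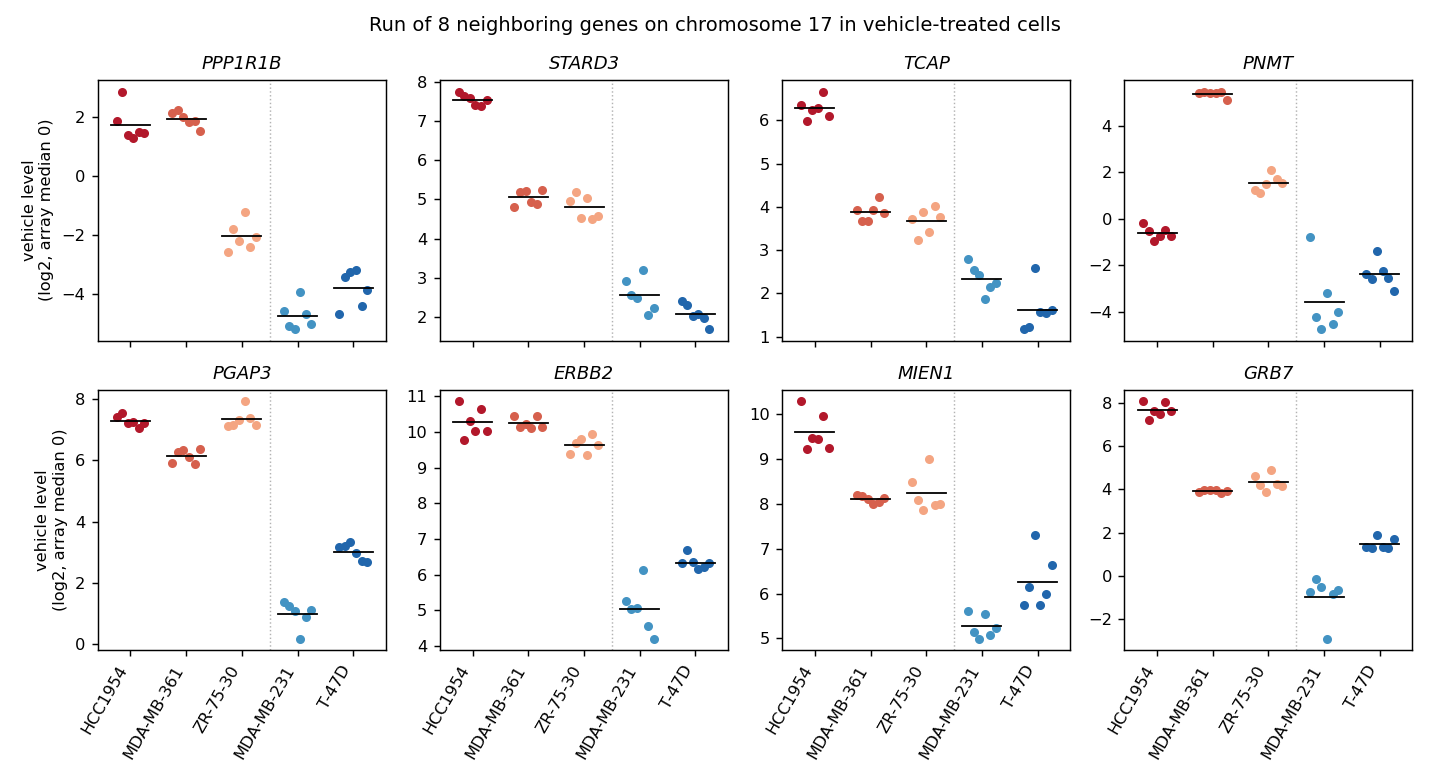
Vehicle level (log2 intensity, array median at 0) of the 8 consecutive genes on each of the 30 arrays, by cell line. Points are arrays in order of time, lines are line means, the dotted line parts the amplified lines (left) from the others, and each panel has its own axis. In every panel the means of the 3 amplified lines lie above those of the other lines, with ZR-75-30 closest to them for PPP1R1B and HCC1954 for PNMT. For PNMT the MDA-MB-231 array at 0.5 h (-0.77) lies above the HCC1954 array at 3 h (-0.97).

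GRB7, an adaptor protein that binds ERBB2, had line means of 7.68 ± 0.33 in HCC1954, 3.94 ± 0.06 in MDA-MB-361 and 4.34 ± 0.37 in ZR-75-30, against -0.98 ± 0.98 in MDA-MB-231 and 1.46 ± 0.25 in T-47D (SD, n = 6 arrays each). The groups differed by 5.08 on the log2 scale. MIEN1, which promotes cell migration, was at 9.60 ± 0.43, 8.10 ± 0.08 and 8.23 ± 0.43 in the same order of amplified lines, and at 5.27 ± 0.26 in MDA-MB-231 and 6.26 ± 0.61 in T-47D. For both genes HCC1954 stood above the other amplified lines by more than their spread, and MDA-MB-361 and ZR-75-30 lay close together.

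On the other side, PGAP3 was at 7.29 ± 0.17 in HCC1954, 6.15 ± 0.21 in MDA-MB-361 and 7.35 ± 0.30 in ZR-75-30, and at 0.97 ± 0.43 in MDA-MB-231 and 3.00 ± 0.27 in T-47D. STARD3, a cholesterol carrier of late endosomes, was at 7.56 ± 0.14, 5.05 ± 0.19 and 4.80 ± 0.30 in the amplified lines in that order, against 2.57 ± 0.43 in MDA-MB-231 and 2.08 ± 0.25 in T-47D. TCAP, a titin-binding protein of muscle sarcomeres, was at 6.27 ± 0.23, 3.88 ± 0.20 and 3.67 ± 0.29, against 2.34 ± 0.32 and 1.62 ± 0.51. These differences came to 4.94, 3.48 and 2.63 on the log2 scale.

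PNMT and PPP1R1B varied most among the amplified lines. PNMT, the enzyme that turns noradrenaline into adrenaline, had means of -0.61 ± 0.28 in HCC1954, 5.38 ± 0.13 in MDA-MB-361 and 1.52 ± 0.35 in ZR-75-30. It was at -3.57 ± 1.47 in MDA-MB-231 and -2.37 ± 0.58 in T-47D, where it was well above background on 3 of 12 arrays. PPP1R1B, a phosphatase inhibitor also called DARPP-32, was at 1.72 ± 0.59 in HCC1954, 1.92 ± 0.26 in MDA-MB-361 and -2.05 ± 0.48 in ZR-75-30, and it was not well above background on any array of the other lines. Set against the lowest signal well above background on each array, it was at least 6.71-fold higher in the amplified group. In ZR-75-30 it passed the background condition on 4 of 6 arrays, the least the rule allows.

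The measured genes next to the run did not separate the groups, but they were near background. NEUROD2, the next measured gene before PPP1R1B at 123 kb from the ERBB2 probe, had means from -3.34 to -2.02 that overlapped between the groups, and it passed the background limit on 5 arrays of HCC1954 and at most 2 of any other line. IKZF3, the next one after GRB7 at 37.1 kb, had means from -3.83 to -2.24 and was well above background on 3 arrays of HCC1954 and at most 1 of any other line. Within 100 kb, ERBB2 itself included, 8 of 9 measured genes were higher in every amplified line, with a median difference of 4.36, that of ERBB2. Between 100 and 250 kb it was 1 of 6, namely CDK12, a kinase of the transcription machinery, with a difference of 0.92, well above background on all arrays and separate at 6 of 6 time points. Between 250 and 500 kb it was 0 of 10 and between 500 and 1000 kb 0 of 23. Between 1000 and 5000 kb, 1 of 189 genes was higher and 36 were lower, with a median difference of -0.50.

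**Figure D2:**
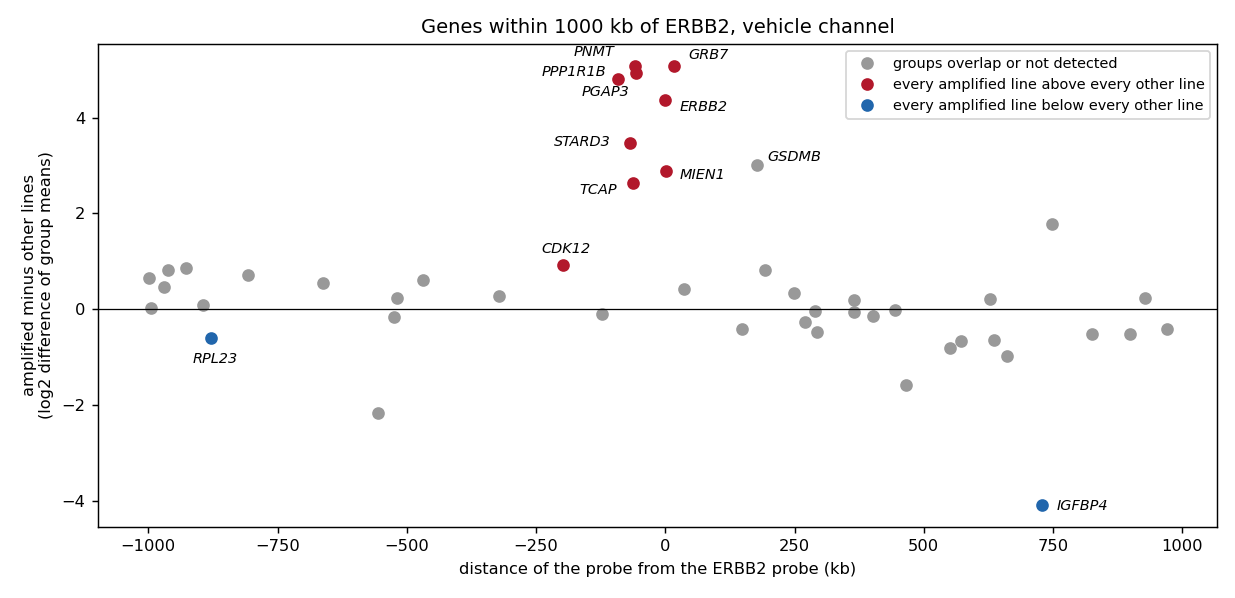
Difference of the group means (amplified minus other lines, log2) of every measured gene within 1000 kb of ERBB2, against the distance of its probe from the ERBB2 probe. Red points are genes higher in every amplified line, blue points genes lower in every amplified line and gray points all others. The red points within 100 kb of ERBB2 lie between 2.63 and 5.08, and farther out in this window only CDK12 is red.

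Several genes that can be part of the amplified segment were not higher in every amplified line. ORMDL3, a regulator of sphingolipid synthesis, was at 9.77 ± 0.47 in HCC1954 and at 5.23 ± 0.11 in MDA-MB-361, below both MDA-MB-231 (6.41 ± 1.83) and T-47D (6.60 ± 0.52). The mean of MDA-MB-231 was raised by its 6 h array, at 10.10, and its median was 5.80. GSDMB, of the gasdermin family, was likewise high in HCC1954 (5.12 ± 0.44) and lower in MDA-MB-361 (-1.66 ± 0.27) than in T-47D (-0.56 ± 0.29). MED1, a subunit of the Mediator complex, had means from 4.46 to 6.03 that overlapped between the groups. So did TOP2A, the DNA topoisomerase, with 3.55 in MDA-MB-361 as its lowest and 6.64 in MDA-MB-231 as its highest mean. IGFBP4, a binding protein of insulin-like growth factors, was lower in every amplified line, at -3.61 in HCC1954, 1.39 in MDA-MB-361 and 1.55 in ZR-75-30 against 4.51 in MDA-MB-231 and 3.22 in T-47D. Of the 38 genes listed for this region, 9 were higher, ERBB2 itself among them, and 1 was lower (23.7% and 2.63%, against 7.1% and 7.22% of all genes). The median difference over the list was 0.22, against -0.08 over all genes.

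The partners of ERBB2 did not separate the groups. EGFR was at 4.09 in HCC1954 and 4.38 in MDA-MB-231, and lower in MDA-MB-361 (1.5), T-47D (0.75) and ZR-75-30 (-1.76). ERBB3, the partner that lacks a strong kinase of its own, was lowest in MDA-MB-231 (-2.26), next in HCC1954 (1.45) and close together in T-47D (3.21), MDA-MB-361 (3.46) and ZR-75-30 (3.92). ERBB4 was highest in T-47D, at 3.83, and not well above background on any array of HCC1954 or MDA-MB-231. The order of the lines thus differed for each receptor, and EGFR and ERBB4 each had a line of the other group at the top.

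Among the ligands, AREG, BTC and NRG2 were higher in every amplified line. AREG, amphiregulin, a ligand of EGFR, was at 7.58 ± 0.46 in HCC1954, 7.62 ± 0.49 in MDA-MB-361 and 8.75 ± 0.20 in ZR-75-30, against 5.20 ± 0.42 in MDA-MB-231 and 5.20 ± 0.57 in T-47D. That is a difference of 2.79 on the log2 scale, or 6.89-fold, and the groups separated at 6 of 6 time points. BTC, betacellulin, which binds EGFR and ERBB4, was at 1.16, 0.07 and -0.59 in the amplified lines in that order, and at -3.94 and -2.39 in MDA-MB-231 and T-47D, where it was well above background on 3 of 12 arrays. NRG2, a neuregulin, was at least 2.2-fold higher in the amplified lines and not well above background in the others, but its other probe did not separate the groups. NRG1, the main ligand of ERBB3, was at 5.41 ± 0.44 in MDA-MB-231 and well above background on at most 1 array of each other line. Of 13 receptors and ligands measured, 4 were higher and 0 lower (30.8% and 0%, beside 7.1% and 7.22% of all genes). ERBB2, whose amplification defined the groups, is among the 4.

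Downstream of the receptors, differences ran from -2.64 to 2.01 on the log2 scale. Of 37 measured genes of the RAS, MAP kinase and PI3 kinase branches and their feedback regulators, 5 were higher and 2 were lower in every amplified line (13.5% and 5.41%, against 7.1% and 7.22% of all genes), and the median difference was 0.21. The higher genes were SPRY1, an inhibitor of RAS signaling (difference 1.48), MAPK3, which encodes the kinase ERK1 (1.36), BRAF (0.97), PIK3CB (0.85) and SOS1, which loads RAS with GTP (0.67). MAP2K2 and CBL, the ubiquitin ligase that takes receptors down, were lower, with differences of -0.69 and -0.73. Of the 5 higher genes SPRY1 had the widest gap, 0.52, and CBL was separated by 0.05. PIK3CB separated the groups at 2 of 6 time points and SOS1 at 3. By medians over the arrays of a line, neither PIK3CB nor SOS1 separated them. For PIK3CB, T-47D (1.75) lay above MDA-MB-361 (1.64), and for SOS1, MDA-MB-231 (-1.30) above ZR-75-30 (-1.34). In the Cy5 channel of BMP7-treated cells PIK3CB and CBL did not meet the rule, while SPRY1, BRAF, SOS1 and MAP2K2 did. The other probe of CBL did not separate the groups.

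None of the 15 genes with the widest gap in each direction belonged to the run around ERBB2. The gap is the lowest line mean of the higher group minus the highest line mean of the lower group, and for ERBB2 it was 3.30, the 25th widest among the 1267 genes higher in the amplified lines. S100A14, a calcium-binding protein of epithelia, had the widest, 8.60. Its means were 7.69 ± 0.18 in HCC1954, 7.80 ± 0.09 in MDA-MB-361 and 7.54 ± 0.14 in ZR-75-30, against -1.06 ± 0.57 in T-47D and -3.43 ± 0.49 in MDA-MB-231, where it was not well above background on any array. The amplified lines lay close together, and the difference of 9.92 ± 0.75 (SE) had an adjusted p of 0.15 in limma.

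CEACAM6 and CEACAM5, cell adhesion molecules of the carcinoembryonic antigen family, followed the same pattern. CEACAM6 was at 6.35 in HCC1954, 6.42 in MDA-MB-361 and 5.62 in ZR-75-30, against -4.42 in MDA-MB-231 and -1.72 in T-47D, where 3 of 12 arrays of the group were well above background. CEACAM5 was at 0.93, 0.99 and 2.13 in the amplified lines and at least 11.9-fold higher there than in the others. It was not well above background on any array of the other lines. CEACAM7 and CEACAM3 beside them on chromosome 19 were also higher, which made a run of 4. The genes of this family resemble each other, and cross-hybridization between their probes was not tested.

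The other genes with wide gaps were of varied function. DPYSL5, a neuronal protein that binds microtubules, was at 4.71, 4.30 and 3.10 in HCC1954, MDA-MB-361 and then ZR-75-30 and at least 76.4-fold higher than in the others. HS6ST2, which adds sulfate to heparan chains, was at 5.89, 4.14 and 4.77 and at least 142-fold higher. SULF2, which removes the same sulfate, was at 6.87, 4.95 and 9.06, against 0.14 in T-47D and -3.71 in MDA-MB-231. All 3 separated the groups at 6 of 6 time points, though the other probe of DPYSL5 and that of HS6ST2 did not separate them. ACTG2, a smooth muscle actin, was at 7.25 in ZR-75-30 and 7.10 in MDA-MB-361 but at 2.85 in HCC1954, and at -2.06 and -2.83 in MDA-MB-231 and T-47D. The remaining genes were BPIFB1, ADGRG2, PPP1R14C, GSTT1, BCL11B, GUCY1A1, KRT83 and SMOC2, with gaps from 3.72 for SMOC2 to 5.34 for BPIFB1. GSTT1, a glutathione transferase whose gene is deleted in many people, was at least 18.1-fold higher.

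In the opposite direction the widest gap was that of GNG11, a gamma subunit of G proteins. It was at 8.77 ± 0.39 in T-47D and 5.96 ± 0.64 in MDA-MB-231, against -3.37 in MDA-MB-361, -4.50 in ZR-75-30 and -4.94 in HCC1954, with 1 of 18 arrays of the amplified lines well above background. ATP10A, a flippase that moves phospholipids across the membrane, was at 4.19 ± 0.50 in MDA-MB-231 and 4.43 ± 0.18 in T-47D. It was not well above background on any array of the amplified lines, where it was at least 103-fold lower. Its difference of -8.68 ± 0.39 (SE) had the lowest adjusted p of all probes in limma, 0.055, and both of its other probes separated the groups. RAB34, a small GTPase of vesicle traffic and ciliogenesis, was measured in all lines, at 8.97 ± 0.82 in MDA-MB-231 and 7.41 ± 0.19 in T-47D against 0.11 ± 0.29 in HCC1954, -0.33 ± 0.21 in MDA-MB-361 and 0.30 ± 0.19 in ZR-75-30. For these 3 genes the lines within a group were far closer to each other than to any line of the other group.

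GJA1, a gap junction connexin, was at 5.17 in MDA-MB-231 and 2.81 in T-47D and at least 82.4-fold lower in the amplified lines. It was not well above background on any array of the amplified lines. STEAP2, a metal reductase, and SLFN12, of the Schlafen family, were at least 14.4-fold and 10.8-fold lower. SRGN, the proteoglycan serglycin, was at 7.44 in MDA-MB-231 but at 0.63 in T-47D, and GALNT5, which starts O-glycan chains, at 3.75 and -0.07, so MDA-MB-231 stood far above T-47D for both. PON3, a paraoxonase, and ARMCX2 had T-47D as the higher line, at 5.56 against 3.82 and at 5.19 against 3.41. CMTM7, MPP1, SMARCA1, CLIC6 and CSF2RA completed the set, with gaps from 3.43 for CSF2RA to 4.91 for CMTM7.

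**Figure D3:**
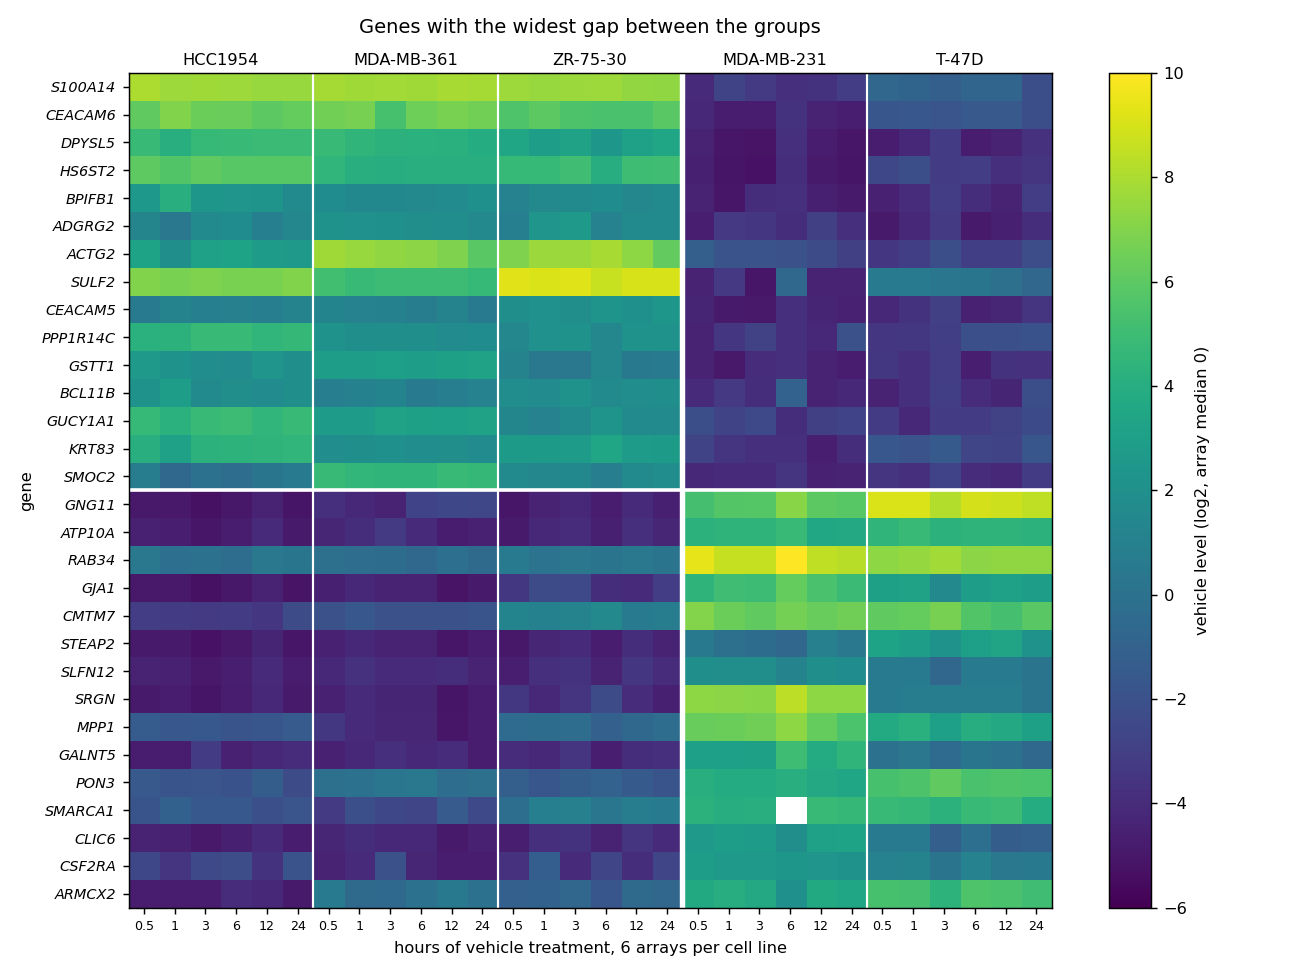
Vehicle level (color, log2 intensity with the array median at 0) of the 15 genes with the widest gap in each direction, in rows, on the 30 arrays, in columns by cell line and hours of treatment. The thick white line parts the 3 amplified lines (left) from MDA-MB-231 and T-47D, and the 1 white cell is a spot marked as an outlier. In the upper block the line means on the left, and in the lower block those on the right, are the higher ones for every gene.

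At the other end of the range the groups barely separated. CEP63 and AARS1 had the narrowest gaps among the higher genes and C9orf40 and NOL12 among the lower genes, each with a gap of under 0.01. AK3 and TCAF1 on the higher side and PCF11 and CFAP65 on the lower side fell just outside. For AARS1, HCC1954 and T-47D both had a mean of 3.73, and for AK3, MDA-MB-361 and MDA-MB-231 both had 1.45. The median gap was 0.32 for higher and 0.25 for lower genes, which is about the SD over the arrays of a line, and a gap over 1 was reached by 203 and 120 genes. At 6 of 6 time points the groups separated for 285 of the 1267 higher genes (22.5%) and 203 of the 1289 lower genes (15.7%). Over all 17842 genes measured, without a background condition, 293 separated upward and 217 downward at 6 of 6 time points. The line means used by the rule were taken over these same arrays, so these counts are not separate support.

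Limma on the 5 line means called 0 of 40999 probes at an adjusted p under 0.05. At an unadjusted p under 0.05 there were 1791 (4.37%), 916 higher and 875 lower in the amplified lines. With quantile normalization 0 probes were called and 2153 had such an unadjusted p, and after normexp background correction with quantile normalization 0 and 2128. When the 30 arrays entered the fit with cell line as a random block, 1283 of 38723 probes were called, and ERBB2 had an adjusted p of 2.04e-07. With slide as the random block it was 12631. Both fits take their residual spread from arrays of 5 lines only, so these p-values are smaller than 5 independent lines would allow.

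Genes with more than 1 probe gave a second reading on the same arrays. Of 837 other probes of the higher genes, 398 (47.6%) also separated the groups in that direction and 703 (84.0%) had the same sign. Of 806 other probes of the lower genes, 332 (41.2%) separated the groups and 705 (87.5%) had the same sign. Over all 9902 such probes, 8.51% separated the groups upward and 10.7% downward, without a background condition.

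The Cy5 channel gave the same comparison in BMP7-treated cells of the same lines and slides. There 1241 genes were higher and 1385 lower in every amplified line (6.96% and 7.76%). They shared 1029 genes with the higher genes of the vehicle channel, which is 81.2% of the vehicle set and 82.9% of the BMP7 set, and 1063 with the lower genes, 82.5% and 76.8%. No gene (0) separated the groups in opposite directions in the 2 channels. Of the 8 genes beside and including ERBB2, 7 separated the groups in both, and PPP1R1B did not meet the rule in the BMP7 channel. ATP10A passed limma there, with a difference of -8.81 and an adjusted p of 0.036. Both channels were read from the same arrays, so they share slide and scan.

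Breast cancers with ERBB2 amplification are often described by luminal and apocrine genes, and the lists for these types were read next. Of 17 HER2-subtype and apocrine genes, 3 were higher and 0 lower (17.6%, against 7.1% of all genes), with a median difference of 2.52 against -0.08 over all genes. MUCL1, a small breast mucin, was at 2.65, 3.09 and 2.29 in HCC1954, MDA-MB-361 and then ZR-75-30, against -2.30 in MDA-MB-231 and -1.40 in T-47D, a difference of 4.52. FGFR4, a growth factor receptor, was at 2.11, 3.90 and 0.71, against -1.77 and 0.38. DHRS2, a dehydrogenase, was at 9.80 and 9.01 in MDA-MB-361 and ZR-75-30 but at 2.32 in HCC1954, just above 2.22 in MDA-MB-231 and 2.13 in T-47D. FOXA1 and SPDEF, transcription factors of luminal cells, belong to the same list and did not meet the rule. They were at 7.37 and 6.00 in T-47D and at -2.37 and 1.22 in MDA-MB-231, so for both the low line was MDA-MB-231 alone. Of 18 luminal genes, 1 was higher, the zinc transporter SLC39A6 (difference 1.47), and 1 lower, the survival factor BCL2 (-1.16), with a median difference of 0.81. Each is 5.56% of the list, below the 7.1% and 7.22% of all genes. The gap was 0.35 for SLC39A6, which separated the groups at 3 of 6 time points, and 0.14 for BCL2, at 2 of 6. BCL2 had an SD of 1.64 over the arrays of MDA-MB-231 and 1.57 over those of T-47D. The other probe of BCL2 did not separate the groups.

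Of 18 genes of epithelial adhesion, 5 were higher in every amplified line and 0 lower (27.8%, against 7.1% of all genes), with a median difference of 1.71. CDH1, E-cadherin, was at 8.21, 9.80 and 8.94 in HCC1954, MDA-MB-361 and then ZR-75-30, at 7.82 in T-47D and at 1.30 in MDA-MB-231. EPCAM was at 7.76, 8.47 and 8.45 against 7.04 and 3.66 in the same lines, and ELF3, an epithelial transcription factor, at 5.94, 3.48 and 4.34 against 2.79 and -3.29. SPINT2, a protease inhibitor, and DSP, desmoplakin, were also higher. For each of these 5, T-47D was less than 1 below the nearest amplified line while MDA-MB-231 was at least 1 below, so most of the difference of the group means lay in MDA-MB-231. Of 18 mesenchymal genes 0 were higher and 0 lower, against 7.1% and 7.22% of all genes, with a median difference of -1.49. Of 16 basal genes, KRT81 and CDH3 were higher, with differences of 2.67 and 4.95, and 0 were lower (12.5% and 0%), with a median difference of 1.95. CDH3 was at 5.42 in ZR-75-30, 4.95 in T-47D and -1.45 in MDA-MB-231, so its difference also lay mostly in MDA-MB-231. KRT81 separated the groups at 4 of 6 time points, with an SD of 1.98 over the arrays of MDA-MB-231.

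The mucin and CEACAM list had 4 of 12 genes higher, CEACAM6, CEACAM5, CEACAM1 and PSCA, and 0 lower (33.3%, against 7.1% of all genes), with a median difference of 2.04. PSCA, a GPI-anchored surface protein, was at 1.24, 3.98 and 5.61 in the amplified lines in the order above, against -3.50 in MDA-MB-231 and -1.71 in T-47D. None of the 8 mucins of the list met the rule. MUC1 was highest in T-47D, at 7.86, and lowest in MDA-MB-231, at -1.84.

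Immune recognition genes lay in the opposite direction. Of 16 genes of MHC class I and II and peptide loading, 0 were higher and 4 were lower in every amplified line (25%, against 7.22% of all genes), with a median difference of -1.02. HLA-B was at 7.48, 6.92 and 6.19 in the amplified lines against 8.01 and 8.13 in MDA-MB-231 and T-47D, and HLA-C at 8.68, 8.56 and 7.90 against 9.21 and 9.03. HLA-F, with a difference of -1.39, and HLA-DMA, which loads peptides on class II molecules, with -1.98, were the others. Class I genes are alike in sequence and vary between people, so their probes may bind unequally in different lines, which was not tested. Of 18 interferon-stimulated genes 4 were lower and 1 higher (22.2% and 5.56%, against 7.22% and 7.1% of all genes), with a median difference of -1.72. MX1, an antiviral GTPase, was at -0.60, 0.32 and 1.53 against 3.13 and 5.14, and IFI27 at 4.13, -0.98 and 2.52 against 7.61 and 5.56. MX2 and OAS2 were the other lower genes, by gaps of 0.19 and 0.17.

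In the BMP pathway, 6 of 31 measured genes were higher and 4 were lower in every amplified line (19.4% and 12.9%, against 7.1% and 7.22% of all genes), with a median difference of 0.03. BMP7 itself was at 8.92 ± 0.28 in ZR-75-30, 6.01 ± 0.67 in HCC1954 and 4.08 ± 0.27 in MDA-MB-361, and at 2.38 ± 0.44 in T-47D. It was not well above background on any array of MDA-MB-231. BMP4 was at -1.61 ± 0.49 in HCC1954, -1.60 ± 0.20 in MDA-MB-361 and 0.44 ± 0.45 in ZR-75-30, against 4.46 ± 0.68 in MDA-MB-231 and 2.80 ± 0.30 in T-47D. The 2 ligands thus ran in opposite directions between the groups. The amplified lines had been chosen for low BMP4 and BMP7, and BMP7 was well above background on all 18 of their arrays. Levels of both ligands are not independent of how the lines were chosen.

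Of the other members of this pathway, ACVR2A, a type II receptor, was higher by 2.14 and SMAD1, which carries the signal, by 1.54. SMAD6, which inhibits it, was higher by 1.95, and the target gene ID4 was at 4.90, 3.69 and 5.18 against 2.07 in T-47D and -4.01 in MDA-MB-231. GDF15, a distant member of the ligand family, was higher by 2.28. SMAD7 and ACVR2B were lower by gaps of 0.10 and less. The receptors BMPR1A and BMPR2 and the target genes ID1, ID2 and ID3 were in neither group of genes.

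Lists of general cell functions were read last. Of 24 genes of cholesterol and fatty acid synthesis, 3 were higher, MSMO1, SQLE and MVD, all of the sterol branch, and 2 lower, ACLY, which supplies acetyl-CoA, and the fatty acid desaturase FADS1, with a median difference of 0.03. Of 20 proliferation genes, 0 were higher and 2 were lower, the kinase CDK1 and the replication factor MCM3, both by gaps of 0.16, with a median difference of -0.39. Of 16 markers of blood, vessel, stromal and fat cells, VWF was higher and CD14 lower, and 3 of the 16 were well above background in all lines, with a median difference of -0.38. These counts compare with 7.1% and 7.22% of all genes.

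**Figure D4:**
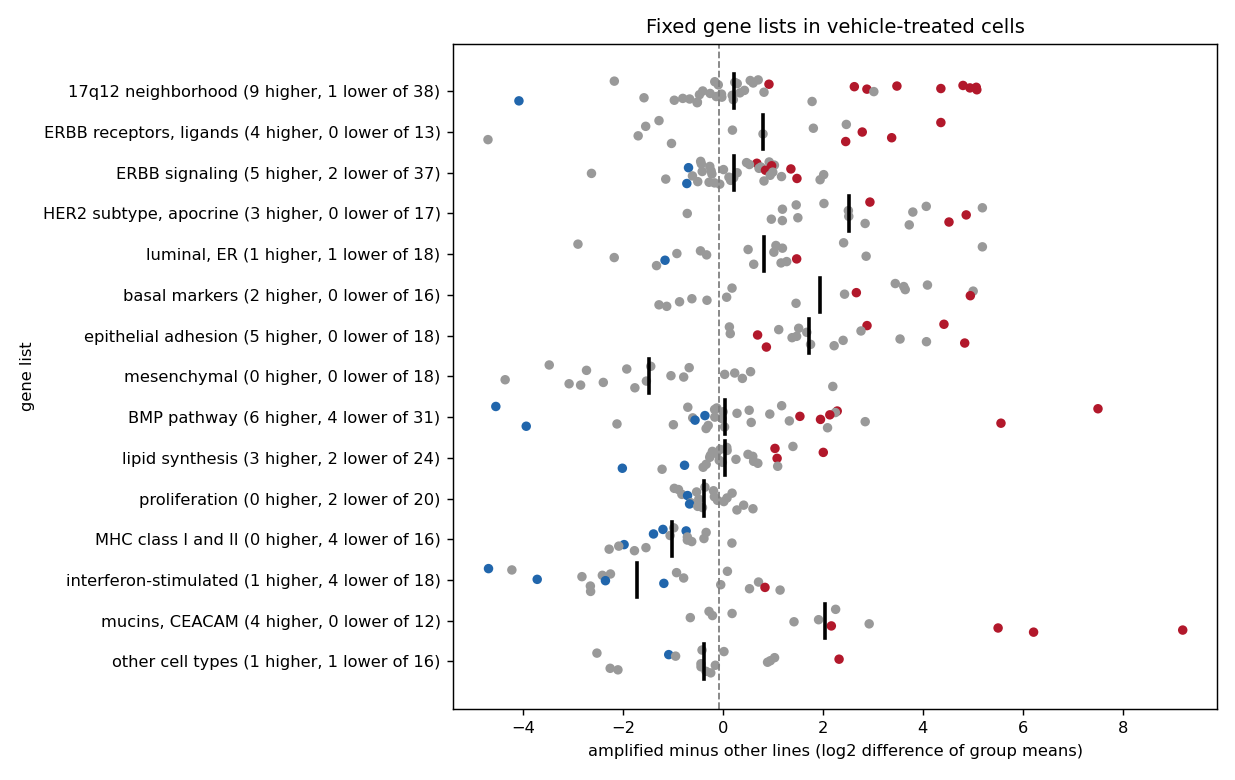
Difference of the group means (amplified minus other lines, log2) of each measured gene of the fixed lists. Points are genes, red where higher and blue where lower in every amplified line, black bars are list medians, and the dashed line is the median of all genes at -0.08. CEACAM6 at 9.20 and BMP7 at 7.51 lie farthest right, and the list medians run from -1.72 for interferon-stimulated genes to 2.52 for HER2-subtype and apocrine genes.

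By chromosome, the genes that separated the groups were spread unevenly. On chromosome 16, 145 of 762 genes (19.0%) were higher in every amplified line and 31 (4.07%) lower, and the median difference over the 566 genes well above background in all lines was 0.47. On chromosome 2 it was 145 of 1126 (12.9%) higher and 37 (3.29%) lower, and on chromosome 4 it was 81 of 685 (11.8%) and 18 (2.63%). Chromosome 11 went the other way, with 23 of 1070 genes higher (2.15%) and 148 lower (13.8%) and a median difference of -0.35. Chromosome 17, which carries ERBB2, had 72 of 1062 higher (6.78%) and 91 lower (8.57%), close to the shares over all genes. Neighboring genes can lie on the same gained or lost segment in a line, so they cannot be taken as independent of each other. Copy number was not measured here.

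**Figure D5:**
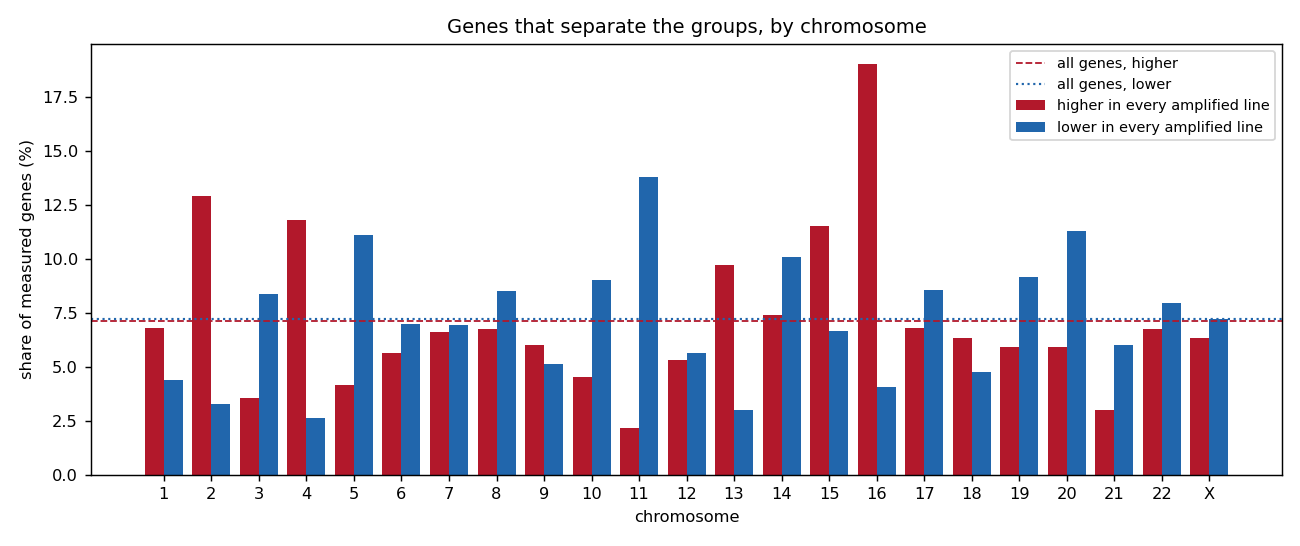
Share of the measured genes of each chromosome (bars, %) that were higher (red) or lower (blue) in every amplified line than in both other lines. The lines mark the shares over all genes, 7.1% higher and 7.22% lower. Chromosome 16 has the tallest red bar, 19.0%, and chromosome 11 the tallest blue bar, 13.8%.

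Shorter runs of consecutive genes lay on other chromosomes. Besides the 8 genes around ERBB2, 8 runs of 4 genes were higher in every amplified line, 3 of them on chromosome 16. One on chromosome 11, chr11:69712579-69959088 (hg18), held ANO1, FADD, PPFIA1 and CTTN, genes beside the cyclin D1 locus, while CCND1 itself, the cyclin, did not meet the rule. Another on chromosome 12 held KRT7, KRT81, KRT86 and KRT83, keratins of similar sequence. Among lower genes the longest run had 5 genes, DNHD1, RRP8, ILK, TAF10 and TPP1, on chromosome 11 (chr11:6549684-6591028, hg18), and a run of 4 on the same chromosome held CBL, MCAM, RNF26 and C1QTNF5.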

How the data were processed

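RNA from vehicle-treated (Cy3) and BMP7-treated (Cy5) cells was hybridized by the authors to 30 Agilent 44K Whole Human Genome arrays. Per the file headers, the deposited intensities were background corrected and dye normalized by Feature Extraction 9.5.1.1 (the methods name another version), with probe positions on hg18. Control spots were dropped, as were spots marked as outliers, log2 Cy3 intensities were centered on each array's median, spots of a probe were averaged, and the 6 arrays of a line were averaged. The deposited matrix of log ratios was not used. Of 41000 probes, 27745 were matched to a RefSeq symbol, 23958 by accession, 2755 by symbol and 1032 by synonym, and a gene was read from its brightest probe.

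Limma 3.58.1 (R 4.3.3) was run on the line means with Benjamini-Hochberg adjustment at 0.05, after the code had been tested on simulated data. Genes were chosen on the same line means that limma tested. Python 3.11.15, numpy 2.4.6, pandas 2.3.3 and matplotlib 3.10.9 were used. A fold given as at least a value is for a group not well above background on any array. That group was set at the lowest signal well above background on each array. The number of arrays and lines limits the precision.

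The genes and lists were chosen with earlier results of these data known, and the lists have genes in common. The genes named are those of the 17q12 and ERBB lists, the 15 with the widest gap in each direction, up to 4 per direction from each other list, the 2 nearest each side of the threshold, BMP4, BMP7 and cell markers. Others were named after their values were seen. Some listed genes are counted but not reported here by name. Alternatives changed the centering, normalization, background correction, filter, probe summary, channel, block, batch, line or time point.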

Additional observations from a re-analysis of the deposited data

Results flagged for a closer look

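For the 8 genes of the run, 7 other ERBB receptors and ligands and 2 array measures, the 6 arrays of each line were searched for 1 array far from the other 5. Of 85 such sets, 8 had one, where chance gives about 1 in 20. The arrays of a line are time points, so a far value can be a change over time as well. Of the 8, 3 were in MDA-MB-231 at 6 h. The median correlation of this array with the rest of its line was 0.942, against 0.977 to 0.981 for the others. GRB7 was at -2.92 there, against -0.86 to -0.17 at the other times, and ERBB4 at -1.66, against -5.24 to -4.44. T-47D at 3 h was far from its line for TCAP, at 2.59 against 1.19 to 1.62, and for BTC, at -3.20 against -2.35 to -2.12. Single values stood apart for PNMT in MDA-MB-361 at 24 h (5.12, against 5.40 to 5.47), PGAP3 in ZR-75-30 at 6 h (7.93, against 7.14 to 7.39) and NRG1 in ZR-75-30 at 0.5 h (-2.94, against -4.42 to -3.87).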

How the results depend on the processing

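Under 21 of 26 alternatives each, the counts of higher and of lower genes stayed within 1.5 times the 1267 and 1289 reported, between 1168 and 1763 and between 1062 and 1875. Without the background filter 2029 genes were lower, and in the second scan batch alone, where MDA-MB-361 has no array, 2167 were higher, 968 of them also among the 1267, and 3 of the 1289 lower genes were higher. When 1 line was left out, the counts ran from 1763 to 3410 for higher and from 1875 to 4257 for lower genes, since fewer lines have to separate. They were 2309 and 2448 without HCC1954, 2262 and 1966 without MDA-MB-361, 1763 and 1875 without ZR-75-30, 3346 and 3538 without MDA-MB-231 and 3410 and 4257 without T-47D. Limma called 0 probes under 26 of 29 alternatives, including each left-out line (lowest and highest count 0). It called 1 in the BMP7 channel, 1283 with line and 12631 with slide as a random block. The difference of ERBB2 lay between 3.71 (without MDA-MB-231) and 5.01 (without T-47D) over all 29 alternatives. Only the random blocks for line (4.36) and slide (4.07) took its adjusted p below 0.05, to 2.04e-07 and 1.01e-14, and over the others it was between 0.073 and 0.898. None of the differences of the other named genes recomputed changed sign. The block fits give no count of separated genes. No paired analysis was made, because the line was the unit, 3 against 2, and a line of one group has no partner in the other. All lines share the 6 time points, and each line mean is taken over them. For 29 higher and 16 lower genes the dimmer group was not well above background on any array, so only a bound on the difference is known.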
